A study of Homo sapiens with 372 samples.

Results

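The ZNF genes code for zinc finger proteins. Every gene listed with a symbol made of ZNF and a number was taken, which gave 275 of the 9664 genes. In most of these proteins a row of C2H2 fingers, each a short loop held around a zinc ion by a pair of cysteines and a pair of histidines, reads a DNA sequence. A large share also carry a KRAB domain, which recruits the corepressor TRIM28 and through it histone methylation and silent chromatin, often at transposable elements. The other members have varied roles, among them the binding of RNA, the assembly of ribosomes and the control of the mitotic spindle. ZNF transcripts are known as scarce transcripts, and therefore both the share of cells in which a gene was detected and its mean level are given.

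The cells were A2780, a long-cultured line from a human ovarian cancer. Paclitaxel is a microtubule stabilizer and celecoxib a cyclooxygenase inhibitor. Single cells were captured on the Fluidigm C1 system and full-length polyA-tailed RNA was sequenced by Smart-seq2, to ask how the transcriptome of single cells responds to each drug and to both. The 6 conditions were untreated control cells (Ctrl, 46 cells retained), 5 nM paclitaxel for 16 h (Pac16h, 56 cells) and 48 h (Pac48h, 53 cells), 75 µM celecoxib for 2 h (Cele2h, 63 cells) and 16 h (cele16h, 61 cells), and 5 nM paclitaxel with 75 µM celecoxib for 16 h (PacCele16h, 59 cells). The labels name no replicate culture or capture run, so each condition was counted as 1 sample, cells are not replicates of a condition, no test between conditions was made, and every SD is a spread over cells. All 5 treatments are set against the same control cells, and the condition cannot be told apart from the culture its cells came from.

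Levels are E-values, E = log2(N/10 + 1). Here N is a transcript-per-million (TPM) value divided by the highest spike-in RNA of the same cell, taken relative to its mean over cells. A difference in mean E-value is therefore on a log2 scale with 10 normalized TPM added, which understates the change of low genes. Calls up or down were made where the mean E-value lay more than 0.585, the log2 of 1.5, above or below the control mean. The authors' list was limited to genes found in more than 30% of cells in some condition, and 35 of the 275 ZNF genes were above that share in 1 condition only and were listed through it. Read numbers per cell are unknown, and the median number of genes detected ran from 6126 to 6630 over the conditions. The summed linear value per cell had a median in the treated groups between 0.348 (cele16h) and 1.40 (PacCele16h) times that of control cells, and each comparison is therefore also given with all cells brought to 1 common total, written as at the same total. Of 9 epithelial and ovarian markers KRT18 alone was listed, at a control mean E-value of 0.59, and of 9 leukocyte, endothelial and fibroblast markers LYZ and COL1A2 were listed, at 0.15 and 0.45, so these lists do not bear on the identity of the line.

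All 275 ZNF genes were found in GENCODE version 44 on hg38, 273 as protein-coding genes and 2, ZNF788 and ZNF286B, as transcribed pseudogenes. In the translated coding sequences, 135 proteins matched a short KRAB motif and held a median of 12 C2H2 fingers, with 31 at most. Another 135 had C2H2 fingers with no match to that motif, with a median of 9 and a maximum of 36 fingers, in ZNF142. ZNF839, ZNF330 and ZNF487 matched neither pattern. The motif misses divergent KRAB domains, such as those of ZNF10 and ZNF263, so the second class is not free of KRAB proteins. Chromosome 19 held 132 of the ZNF genes (48%), against 7.62% of all the genes listed that could be placed, and 93 of the 135 genes with a KRAB motif lay there. With starts at most 500 kb from the next, 142 ZNF genes stood in 15 runs of 5 or more neighbours, 10 of them on chromosome 19. Paralogues of this kind share sequence. A median of 9.45% of the 31-base words in the longest coding transcript of a ZNF gene also occurred in other genes. Any other gene of version 44 on either strand counted, overlapping and antisense ones included, so the share is not one of paralogues alone. The share was 12.5% in the KRAB motif class and 4.96% in the class without it, and 21 genes had over 50%, ZNF593 (95.7%), ZNF410 (88.9%) and ZNF511 (55.4%) among them. RSEM divides such reads between genes by estimate, and the counting is not stated to use strand, so the levels of these genes and of genes with an antisense partner are uncertain.

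RefSeq promoter windows of GRCh38.p14, 250 bases before to 50 bases after a gene start, were matched for 241 of the 275 genes. The letters CCGGAAG, the core recognized by ETS factors, were found on one strand or the other in 41.9% of the ZNF windows, against 22.1% of the windows of all genes listed and 10.7% of all 27305 windows in the table. The CCAAT box, spelled as its name, occurred in 49.0% of the ZNF windows and in 38.2% of those of the genes listed. The SP/KLF box GGGCGG was found in 64.3% and 71.8%, the NRF1 half-site GCGCATGC in 7.47% and 6.44%, the YY1 core AAGATGGC in 4.98% and 6.44%, and the TATA box TATAAA in 3.32% and 4.87%, with the ZNF genes first in each pair. In all 27305 windows these 5 shares were 35.7, 44.6, 3.27, 3.03 and 12.0%, for the CCAAT box, the SP/KLF box, the NRF1 half-site, the YY1 core and the TATA box in turn. The median G and C content was 61.7% in the ZNF windows and 65.3% in those of the genes listed. Windows of 4 genes with some of the largest differences, ZNF226 upward and the other 3 downward, are shown from 250 bases before to 30 bases after the start, with matches to any of the 6 motifs in capitals. Capitals mark letters only, and whether a factor binds there was not measured.
ZNF226 (chr19:44164850-44165129, plus strand): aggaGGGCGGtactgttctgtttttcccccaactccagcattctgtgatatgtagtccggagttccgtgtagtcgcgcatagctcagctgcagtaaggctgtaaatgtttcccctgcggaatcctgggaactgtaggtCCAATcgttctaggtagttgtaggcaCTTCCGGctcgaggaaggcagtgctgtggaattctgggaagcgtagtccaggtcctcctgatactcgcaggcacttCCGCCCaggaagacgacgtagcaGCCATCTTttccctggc
ZNF207 (chr17:32349907-32350186, plus strand): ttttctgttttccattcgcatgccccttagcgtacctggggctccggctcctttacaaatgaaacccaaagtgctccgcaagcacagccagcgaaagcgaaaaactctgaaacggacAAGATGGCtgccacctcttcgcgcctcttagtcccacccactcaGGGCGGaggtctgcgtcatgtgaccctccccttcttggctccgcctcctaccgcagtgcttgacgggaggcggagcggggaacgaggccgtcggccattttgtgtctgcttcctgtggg
ZNF511 (chr10:133308664-133308943, plus strand): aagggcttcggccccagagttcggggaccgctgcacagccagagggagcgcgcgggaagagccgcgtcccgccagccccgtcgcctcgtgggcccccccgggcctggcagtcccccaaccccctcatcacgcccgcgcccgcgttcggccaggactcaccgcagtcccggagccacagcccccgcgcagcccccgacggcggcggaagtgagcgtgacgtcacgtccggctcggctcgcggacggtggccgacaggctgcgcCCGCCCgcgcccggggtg
ZNF593 (chr1:26169658-26169937, plus strand): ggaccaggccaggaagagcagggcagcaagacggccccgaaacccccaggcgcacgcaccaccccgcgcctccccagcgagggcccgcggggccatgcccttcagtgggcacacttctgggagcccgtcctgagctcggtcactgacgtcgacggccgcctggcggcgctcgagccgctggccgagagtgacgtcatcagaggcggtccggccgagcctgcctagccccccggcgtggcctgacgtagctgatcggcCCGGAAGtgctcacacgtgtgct
The ZNF226 window held 2 SP/KLF boxes, an ETS core, a YY1 core and a CCAAT box. In that of ZNF207 there was 1 SP/KLF box and 1 YY1 core, in that of ZNF511 a single SP/KLF box, and in that of ZNF593 a single ETS core near the gene start.

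ZNF transcripts were scarce in these cells. In control cells the median ZNF gene had a mean E-value of 0.57 and was detected, with an E-value above 0, in 41.3% of cells, against 1.45 and 71.7% for the median of all genes listed. E-values were 0 in 55.2% of the ZNF measurements and in 34.9% of all measurements. The lowest control mean was 0.01 in ZNF844 and the highest 5.45 in ZNF706. Genes with a KRAB motif were lower and were detected in fewer control cells than the C2H2 genes without it, with a median mean E-value of 0.47 against 0.68 and a median share of 37.0% against 45.7%. Related families lay at like levels. The control median was 0.41 for 28 ZBTB genes, 0.40 for 14 ZSCAN and ZKSCAN genes and 0.78 for 14 ZFP genes.

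The 10 ZNF genes with the highest mean over the 6 conditions were ZNF706, ZNF593, ZNF770, ZNF207, ZNF638, ZNF511, ZNF32, ZNF644, ZNF146 and ZNF330. None of these 10 had a KRAB motif, and the highest gene that did was ZNF195, at rank 15. In this group are proteins known for roles other than the repression of promoters: ZNF593 assists the export of the large ribosomal subunit, ZNF207 (BuGZ) loads BUB3 onto kinetochores, and ZNF638 is an RNA-binding nuclear protein. The 10 genes made up between 29.6% (PacCele16h) and 34.7% (Ctrl) of the summed mean linear value of all ZNF genes, and the top 50 between 60.0 and 65.8%. ZNF706, which codes for a small protein with 1 finger, was the highest in linear mean in every condition except cele16h, where ZNF593 was, with 6.24% of the ZNF sum.

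The number of ZNF genes detected in a cell hardly moved between conditions. Its median was 121.5 per control cell (range 95 to 168), 121 in Pac16h (93 to 203), 122 in Pac48h (92 to 185), 124 in Cele2h (88 to 172), 123 in cele16h (90 to 170) and 123 in PacCele16h (86 to 212). All ranges overlapped, while the median number of all genes detected was between 0.924 and 0.958 times the control value in the treated groups. Across the cells of each condition the number of ZNF genes followed the number of all genes detected, with values of Pearson's r from 0.73 to 0.83 and of Spearman's rho from 0.67 to 0.86 (46 to 63 cells, which share the depth of each library and a denominator). Gene by gene, the share of detecting cells was higher than in control cells for 122 ZNF genes and lower for 151 in Pac16h. These counts were 136 and 136 in Pac48h, 135 and 139 in Cele2h, 137 and 137 in cele16h, and 129 and 144 in PacCele16h. Of all genes listed, between 30.4 and 34.2% had a higher share than in control cells, and of the ZNF genes between 44.4 and 49.8%. These shares are not on an equal footing. In control cells 74.2% of the ZNF genes were above 30% of cells, against 90.4% of all genes. Nearly all genes at or below that limit were listed through treated cells, which favours rises. The median control share was also lower, 41.3% against 71.7%, which left the ZNF genes more room to rise. With a limit of 1 in place of 0 the groups differed more, and the median number of ZNF genes above it was 81 per control cell, 58.5 in Pac16h, 75 in Pac48h, 68 in Cele2h, 65 in cele16h and 86 in PacCele16h.

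ZNF transcripts took a larger share of the total in treated cells. The median over cells of their summed linear value was 0.417% of the total of the genes listed in control cells (range 0.306 to 0.748%), 0.454% in Pac16h (0.308 to 0.638%) and 0.483% in Pac48h (0.345 to 0.905%). It was 0.480% in Cele2h (0.284 to 0.778%), 0.644% in cele16h (0.409 to 1.10%) and 0.517% in PacCele16h (0.262 to 0.705%). In cele16h 60 of 61 cells were above the control median, in PacCele16h 54 of 59, in Cele2h 47 of 63, in Pac48h 42 of 53 and in Pac16h 34 of 56, and the ranges of all conditions overlapped. This share does not depend on the spike-in, which cancels within a cell. Other genes of like level had a higher share as well. The 2703 other genes with a control mean E-value between the quartiles of the ZNF genes (0.30 and 1.05) went from a median of 1.96% in control cells to 2.29, 2.72, 2.56, 3.27 and 2.80% in the same order of treatments. ZNF genes with and without a KRAB motif both had a higher share in cele16h than in control cells, 0.197% against 0.111% and 0.429% against 0.297%.

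**Figure D1:**
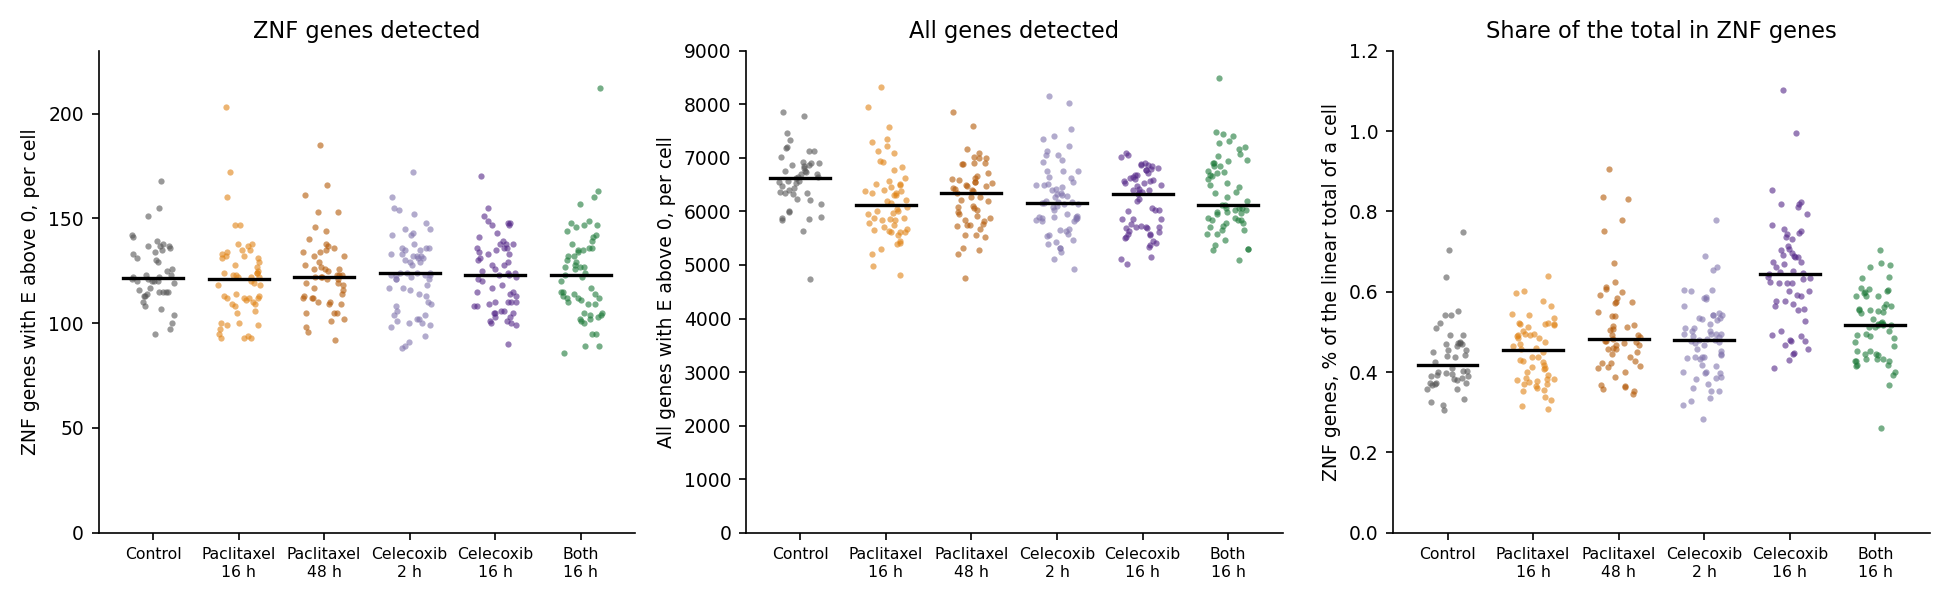
Number of ZNF genes detected, number of all genes detected, and percent of the linear total held by ZNF genes, with 1 point per cell in each of the 6 conditions and a black line at the median. The medians of the ZNF genes detected lie between 121 and 124 in every condition, and the share of the total is highest in the cele16h cells, at a median of 0.644%.

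At 16 h of paclitaxel, 35 ZNF genes (12.7%) were called down and 0 up. Of all genes listed 37.3% were called down and 0.0931% up, so that a smaller share of ZNF genes passed the limit. At 48 h, 18 ZNF genes (6.55%) were down, against 26.6% of all genes, and 0 were up, against 0.921%. After 2 h of celecoxib 20 (7.27%) were down and 1, ZNF780B, was up, against 25.7 and 1.12% of all genes. At 16 h of celecoxib 38 (13.8%) were down and 1, ZNF226, was up, against 43.9 and 0.383%. With both drugs the direction turned, as it did over all genes: 52 ZNF genes (18.9%) were up and 2, ZNF326 and ZNF586, were down, against 30.4 and 1.76%. Libraries were indexed in 4 blocks, and 2 conditions were spread over more than 1 block. Pac16h lay wholly in block 1, Cele2h in block 2 and cele16h in block 3, and PacCele16h was in blocks 1 and 3. Of the treated cells only 31 of Pac48h shared a block with control cells. The other treatments therefore cannot be told apart from their blocks. Against all control cells, which were in block 4, the Pac48h cells of block 2 alone had 24 ZNF genes down and 1 up and those of block 4 had 17 and 3, and the PacCele16h cells of block 1 had 60 up and those of block 3 had 63. The median difference of the ZNF genes was -0.15, -0.05, -0.08, -0.14 and 0.24 in the order Pac16h, Pac48h, Cele2h, cele16h and PacCele16h, and that of all genes -0.41, -0.26, -0.26, -0.48 and 0.33.

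The lower share of calls went with the low level of these genes. Among genes with a control mean between the quartiles of the ZNF genes, 4 of 137 ZNF genes (2.92%) and 65 of 2703 other genes (2.40%) were down in Pac16h, 5 (3.65%) and 80 (2.96%) in cele16h, and 24 (17.5%) and 497 (18.4%) were up in PacCele16h. Above the upper quartile, 31 of 69 ZNF genes (44.9%) and 60.7% of 5774 other genes were down in Pac16h. In cele16h the same shares were 47.8% and 71.4%, and 31.9% and 40.2% were up in PacCele16h. Those other genes were also higher in control cells, with a median mean E-value of 2.49 against 1.61 for the ZNF genes above the quartile. By spike-in the direction of the ZNF genes was the same in both layers, as in the class with a KRAB motif, where 7, 4, 2 and 12 of 135 were down under single drugs and 25 were up under both. In the class without it 27, 14, 17 and 24 of 135 were down and 26 were up. On linear means, which weigh high cells more, the median ZNF gene had a log2 ratio to control of -0.62, -0.23, -0.33, -0.77 and 1.16.

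Few of these differences exceeded the spread between cells. The median SD of a ZNF gene over control cells was 0.97, and the difference in mean E-value was larger than the gene's own SD over control cells for 4 ZNF genes in Pac16h (1.45%), 2 in Pac48h (0.727%), 3 in Cele2h (1.09%), 4 in cele16h (1.45%) and 10 in PacCele16h (3.64%). The share of all genes was 11.7, 8.29, 7.53, 19.7 and 10.3%. ZNF207 was among them under all 4 single-drug conditions, and ZNF226, ZNF287, ZNF322 and ZNF780B under both drugs.

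**Figure D2:**
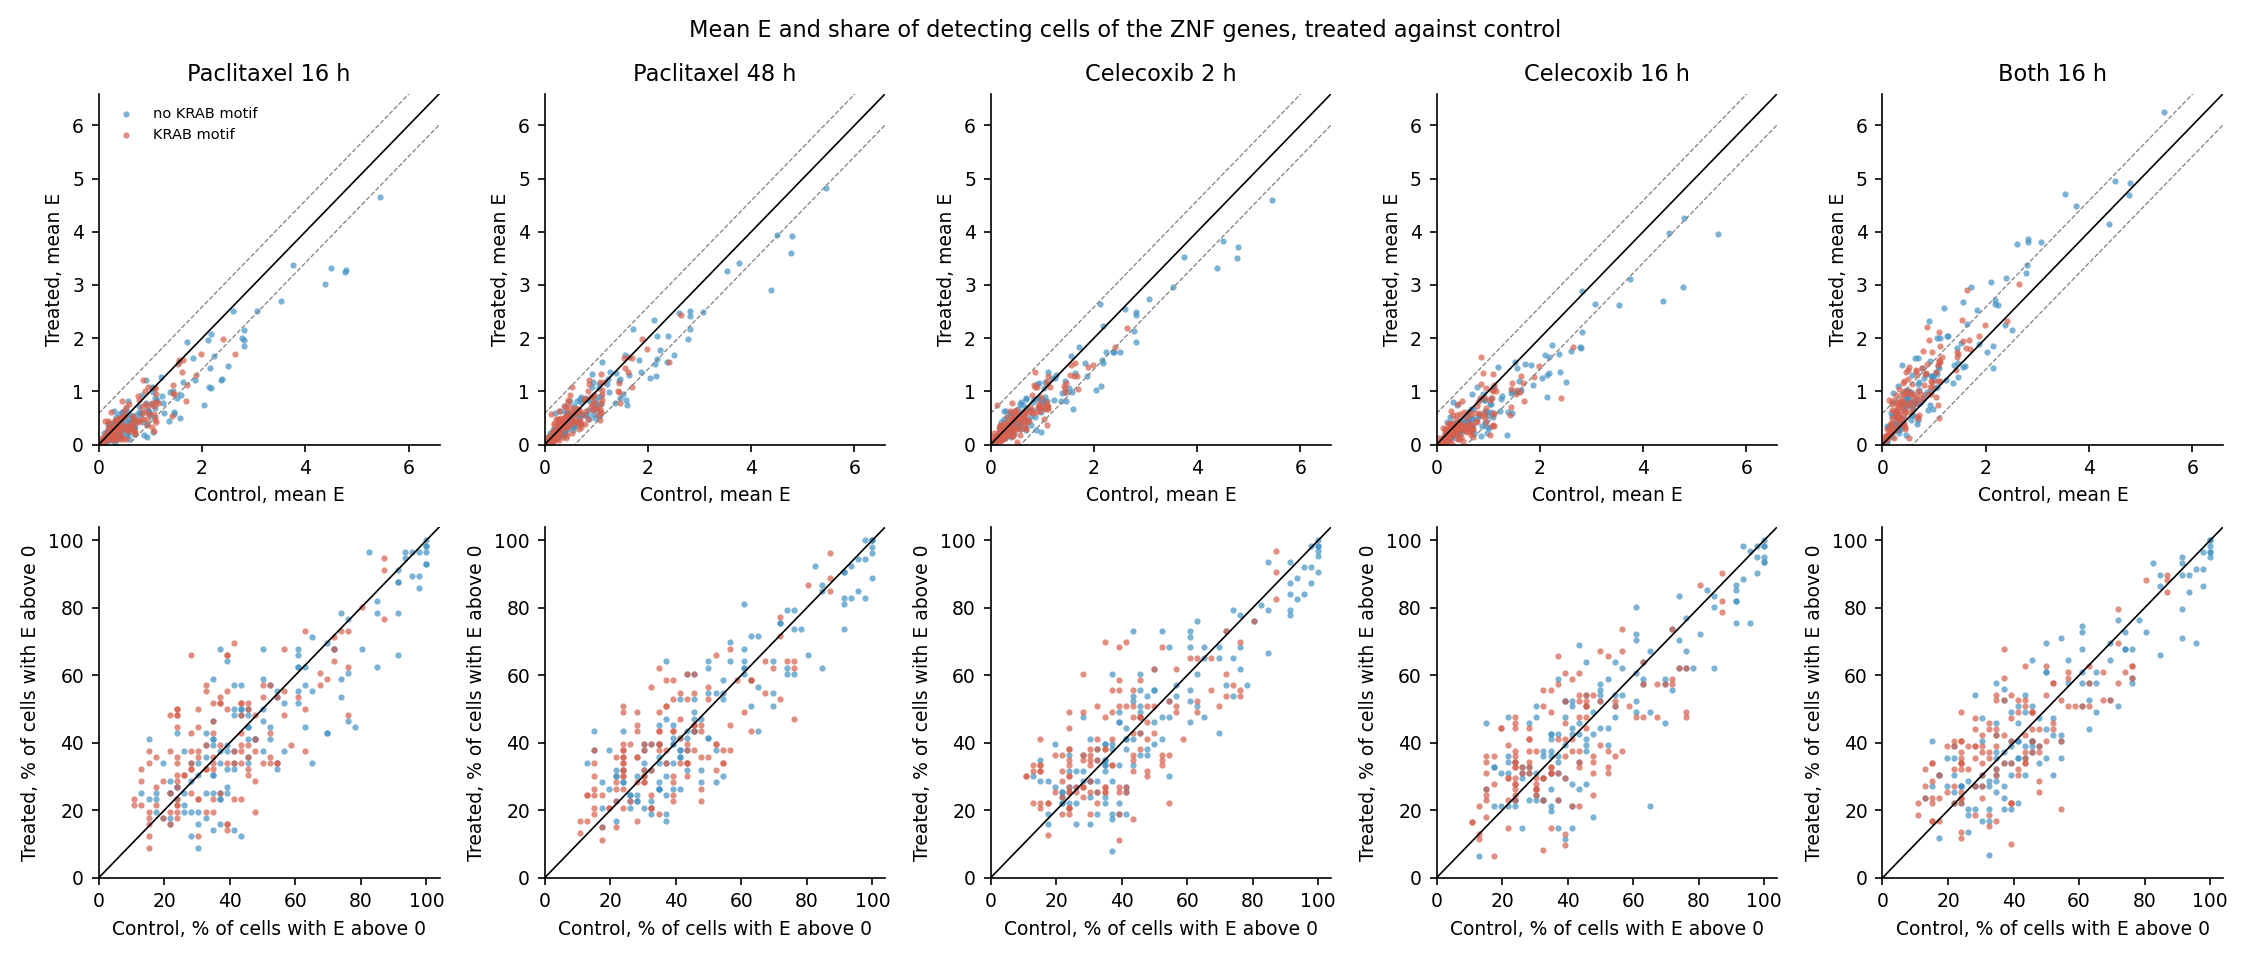
Mean E-value (upper row) and percent of cells with an E-value above 0 (lower row) of the 275 ZNF genes, control cells on the x axis and treated cells on the y axis, coloured by KRAB motif. The solid line marks equality and the dashed lines 0.585 above and below it. Points lie mostly below the line under single drugs and above it with both drugs, while the shares of detecting cells scatter to both sides of the line.

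With all cells at the same total most of these calls were gone and the balance of directions differed. In Pac16h 14 ZNF genes stayed down, against 10.0% of all genes, and 2 were up, against 1.40%. In Pac48h 2 were down (5.77% of all genes) and 5 up (3.28%), and in Cele2h 4 were down (8.11%) and 3 up (3.31%). In cele16h, where 38 had been down by spike-in, 4 were down (7.95%) and 19 were up (7.38%), or 6.91% of the ZNF genes. In PacCele16h 3 were down (5.79%) and 8 up (5.95%). ZNF shares ran between 0.727 and 6.91% and were below the share of all genes in every comparison and direction. The median of all genes was shifted against the spike-in scale by this rescaling, to -0.07, 0.0031, -0.02, 0.03 and 0.02, and that of the ZNF genes to -0.02, 0.05, 0.0092, 0.08 and 0.04, so that its sign turned in Pac48h, Cele2h and cele16h. Over the 5 treatments, 90 ZNF genes (32.7%) were lower under every single drug and higher with both on the deposited scale, against 50.7% of all genes, and 9 (3.27%) at the same total, against 3.73%.

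ZNF207, the kinetochore protein that loads BUB3, fell under each single drug. Its E-values in control cells ran from 2.95 over a median of 5.00 to 5.81, and its mean was 4.76 ± 0.717 (SD over 46 cells). In Pac16h they ran from 0.015 over 3.67 to 5.43, and in Pac48h from 0.019 over 3.87 to 5.48. In Cele2h they ran from 1.03 over 3.56 to 5.11, in cele16h from 0 over 3.20 to 4.53, and in PacCele16h from 0 over 5.21 to 7.34. All groups overlapped the control cells, and every treated group, that with both drugs included, reached far below the lowest control value. The difference in mean from control cells was -1.52 in Pac16h, -1.16 in Pac48h, -1.25 in Cele2h and -1.80 in cele16h, and -0.06 with both drugs. It was the one ZNF gene down under all 4 single drugs also at the same total, with differences of -0.82, -0.59, -0.72 and -0.59, and -0.68 with both drugs. The gene was still detected in 93.4% of cele16h cells (95% interval 84.1 to 98.2%) and in at least 98.3% of the cells of every other condition, so the fall was one of level within cells. Intervals on shares are exact Clopper-Pearson intervals and cover counting error only. ZNF207 lies on chromosome 17 (hg38, 32350132 to 32381885, plus strand), and 25.7% of its 31-base words were shared with other genes.

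ZNF593, the ribosome assembly factor, fell under paclitaxel and at 2 h of celecoxib. Its control values ran from 1.15 over 4.92 to 6.98, with a mean of 4.79 ± 0.910 (SD over 46 cells). The medians were 3.50 in Pac16h, 4.08 in Pac48h, 4.04 in Cele2h, 4.56 in cele16h and 5.08 in PacCele16h, with a lowest value of 0 in all 5, and every treated group overlapped the control cells. The difference in mean was -1.51 in Pac16h, -0.87 in Pac48h and -1.09 in Cele2h. In cele16h its difference of -0.54 was within the limit by spike-in and became 0.77, past the limit upward, at the same total, so its direction there depends on the scaling. Nearly all of its words, 95.7%, were shared with other genes, and its level is therefore uncertain.

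ZNF511 was past the limit downward under every single drug by spike-in. Its control values ran from 0 over 4.69 to 5.78 (mean 4.38 ± 1.18, SD over 46 cells), and its medians were 3.25, 3.09, 3.78, 2.95 and 4.44 in the 5 treated groups, which all overlapped the control cells. The differences in mean were -1.36 in Pac16h, -1.47 in Pac48h, -1.06 in Cele2h and -1.69 in cele16h, and -0.23 with both drugs. They were, at the same total, -0.73, -0.95, -0.57, -0.55 and -0.79, so that both paclitaxel times and the combination stayed past the limit. It was detected in 97.8% of control cells (88.5 to 99.9%) and in 83.0% (70.2 to 91.9%) to 90.2% (79.8 to 96.3%) of treated cells.

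ZNF706, the most abundant ZNF gene, was past the limit in every treatment by spike-in and in none at the same total. Its median E-value was 5.64 in control cells (2.22 to 6.86), 4.80 in Pac16h (0 to 7.06), 4.82 in Pac48h (2.13 to 6.74), 4.80 in Cele2h (0 to 8.08), 4.02 in cele16h (0 to 5.50) and 6.30 in PacCele16h (3.61 to 8.65). The differences in mean were -0.80, -0.64, -0.86, -1.49 and 0.80 by spike-in, and -0.03, -0.02, -0.32, -0.17 and 0.11 at the same total. By spike-in 10 ZNF genes were down under all 4 single-drug conditions (3.64%, against 18.5% of all genes), namely ZNF207, ZNF706, ZNF639, ZNF576, ZNF143, ZNF24, ZNF622, ZNF771, ZNF511 and ZNF580. At the same total ZNF207 alone was.

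Of 13 ZNF genes with roles in RNA, ribosomes or the spindle, 6 were down in Pac16h, 5 in Pac48h, 4 in Cele2h and 6 in cele16h, and 4 were up and 1 down with both drugs. Beside these stand 37.3, 26.6, 25.7 and 43.9% of all genes down under the single drugs and 30.4% up with both, so that with shares of 46.2, 38.5, 30.8, 46.2 and 30.8% the list is near all genes. The list was also higher in control cells, with a median mean E-value of 2.24 against 1.45 for all genes. At the same total 2, 1, 1, 1 and 2 of the 13 were down, and 2 were up, both in cele16h. These are shares of 15.4, 7.69, 7.69, 7.69 and 15.4% down and 15.4% up in cele16h. Of all genes 10.0, 5.77, 8.11, 7.95 and 5.79% were down and 7.38% up in cele16h, and with 13 genes each call weighs much. ZNF326, a subunit of the DBIRD complex that couples RNA polymerase II to splicing, had a lower mean in every treatment. Its median went from 2.36 in control cells (0 to 3.89) to 1.81, 1.09, 1.68, 0.87 and 1.46, with a lowest value of 0 in each group. The differences in its mean were -0.71, -0.86, -0.56, -1.25 and -0.70, and at the same total -0.20, -0.40, -0.17, -0.51 and -0.87, the last of which, with both drugs, was past the limit. It was detected in 95.7% of control cells and in 69.5% of PacCele16h cells. ZNF622, a factor of the large ribosomal subunit, had differences of -1.03, -0.83, -0.78 and -1.34 under the single drugs, all past the limit by spike-in and within it at the same total. ZNF598, a sensor of collided ribosomes that was above 30% of cells in Cele2h only, stayed within the limit on both scales in all 5 comparisons, with spike-in differences between -0.14 and 0.09.

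Among 19 promoter-binding factors and corepressor subunits outside the KRAB group, 4, 2, 3 and 6 were down under single drugs and 7 were up with both, or 21.1, 10.5, 15.8, 31.6 and 36.8%, against 37.3, 26.6, 25.7, 43.9 and 30.4% of all genes. Of these 19, 2 were down at the same total in Pac16h and 0 in the other treatments, and 1, 1, 0, 3 and 1 were up. Of all genes 10.0, 5.77, 8.11, 7.95 and 5.79% were then down, and 1.40, 3.28, 3.31, 7.38 and 5.95% up. The list thus had 0 down and 3 up in cele16h, where falls became fewer over all genes as well, from 43.9 to 7.95%. ZNF143, an activator bound near many gene starts, had differences of -1.16, -0.83, -0.64 and -0.68 under the single drugs, all past the limit, and at the same total was past it in Pac16h (-0.73) and not in the other conditions. ZNF410, an activator known for a single main target, CHD4, had differences of -1.15 in Pac16h, -0.65 in Cele2h, -1.02 in cele16h and 0.73 in PacCele16h, of which that in Pac16h alone was past the limit at the same total (-0.74). Its median in Pac16h was 0, against 2.74 in control cells and 2.42 in Pac48h. CHD4 itself differed from control by -0.21 in Pac16h, -0.12 in Cele2h, -1.11 in cele16h and 0.79 in PacCele16h, the last pair past the limit. These 4 differences were 0.51, 0.38, -0.06 and 0.24 at the same total, all within it. The words of ZNF410 are 88.9% shared with other genes, and its level is uncertain.

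ZNF217, an oncoprotein of the CoREST corepressor that is amplified in ovarian and breast cancer, was up with both drugs. Its values ran from 0 over a median of 1.64 to 4.34 in control cells and from 0 over 3.31 to 6.35 in PacCele16h, and the mean was higher by 1.25. Medians were 1.61 in Pac16h, 2.56 in Pac48h, 2.11 in Cele2h and 1.34 in cele16h. At the same total its mean was past the limit upward in Pac16h (0.67), Pac48h (0.85) and PacCele16h (0.71), within it in Cele2h (0.42) and cele16h (0.55), and within the limit under every single drug by spike-in. ZNF146, a protein made almost only of fingers, differed by -0.97 in Pac16h, by 0.06 in cele16h and by 0.98 in PacCele16h, past the limit upward, on the deposited scale. The Pac16h and PacCele16h differences were -0.42 and 0.36 at the same total, within it. Its median in cele16h, 3.08 (0 to 4.37), was close to the 3.07 (0 to 4.63) of control cells, and at the same total its cele16h difference was 1.22, past the limit upward.

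**Figure D3:**
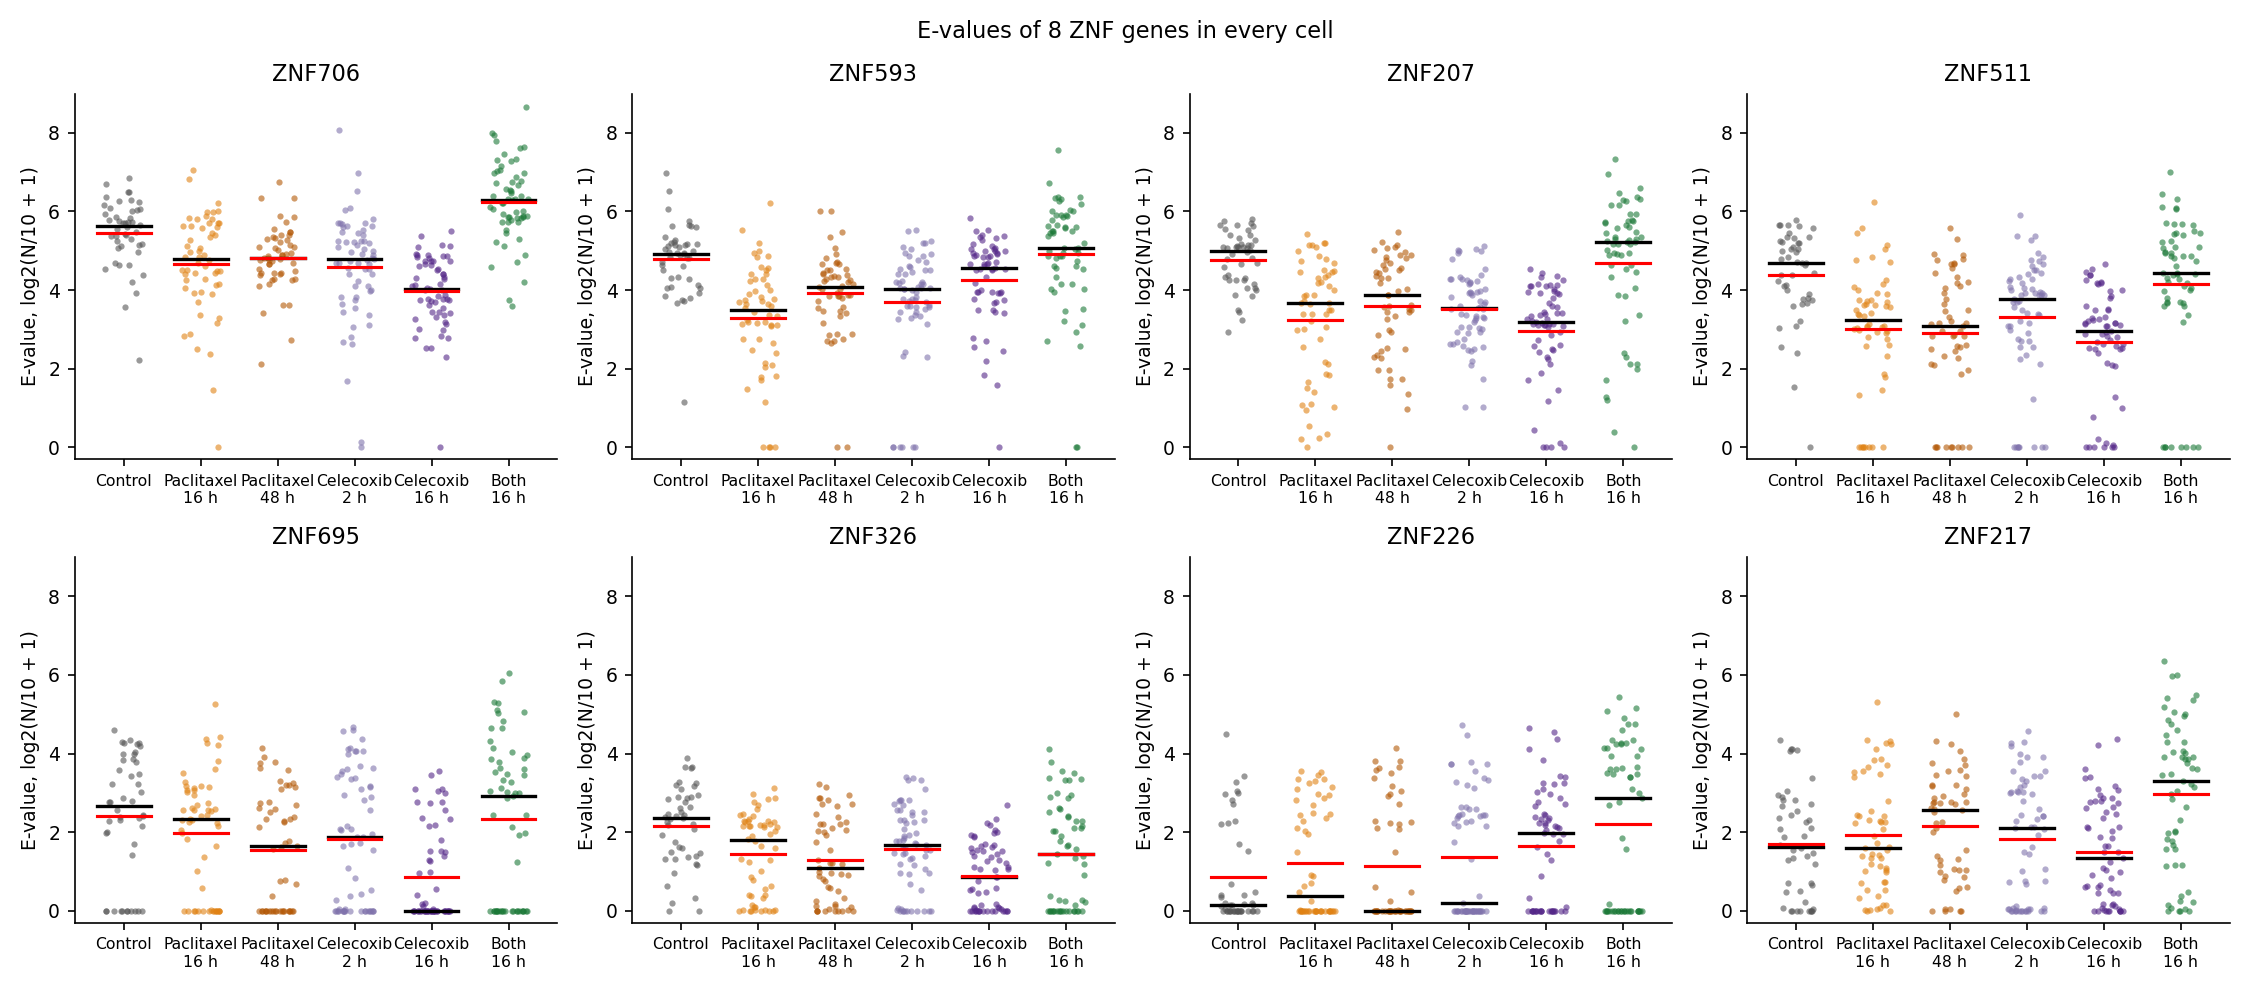
E-values of 8 ZNF genes in every cell of the 6 conditions, with a black line at the median and a red line at the mean. The median of ZNF207 lies lower under each single drug and near that of control cells with both drugs, and the median of ZNF226 is 0.142 in control cells, 1.98 in cele16h and 2.88 in PacCele16h.

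ZNF226, a KRAB protein with 17 fingers on chromosome 19 (hg38, 44165073 to 44178381, plus strand), had a higher mean than in control cells in all 5 treatments. Its median E-value was 0.142 in control cells (0 to 4.50), 0.375 in Pac16h (0 to 3.56), 0 in Pac48h (0 to 4.15), 0.190 in Cele2h (0 to 4.73), 1.98 in cele16h (0 to 4.64) and 2.88 in PacCele16h (0 to 5.45). Values spanned a like range in every group, and what differed was how many cells lay in its upper part. The mean was higher by 0.36, 0.29, 0.51, 0.80 and 1.36, past the limit in cele16h and PacCele16h, and at the same total by 0.59, 0.45, 0.67, 1.40 and 0.90, past it in all but Pac48h. The share of detecting cells was 56.5% in control cells (41.1 to 71.1%), 67.2% in cele16h (54.0 to 78.7%) and 59.3% in PacCele16h (45.7 to 71.9%), with intervals that overlap. Within detecting cells the mean was 1.51 in control cells, 2.46 in cele16h and 3.73 in PacCele16h. Its longest coding transcript shared 6.67% of its words with other genes.

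ZNF226 was 1 of 23 ZNF genes (8.36%) with a higher mean than control in all 5 treatments by spike-in, against 3.60% of all genes, and of 66 (24.0%) at the same total, against 19.2%. A larger share of the ZNF genes than of all genes was listed through treated cells, as 74.2% against 90.4% were above 30% of control cells. That favours rises among the ZNF genes, so the shares with a higher mean are not on an equal footing. Another of the 23 was ZNF780B, a KRAB protein with 21 fingers, which was up in Cele2h by 0.63 (0.65 at the same total) and in PacCele16h by 0.72. The median of ZNF780B was 0 in all 6 conditions, and its highest value was 3.77 in control cells and 3.69 in Cele2h. It was detected in 15.2% of control cells and 41.3% of Cele2h cells, and with under 30% in control cells it was listed through treated cells. ZNF780A, the next ZNF gene to it on chromosome 19 and on the same strand, was up with both drugs by 1.06 and, at the same total, by 1.05 in cele16h. ZNF287 and ZNF322 had the largest rises with both drugs beside ZNF226, by 1.41 and 1.37, and by 0.85 and 0.81 at the same total. The median of ZNF287 was 0 in every condition except PacCele16h, where it was 3.10 (0 to 6.35), and it was detected in 34.8% of control and 57.6% of PacCele16h cells. For ZNF322 the median was 0.979 in control cells and 3.37 in PacCele16h (0 to 5.20).

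ZNF695, a KRAB protein, had the largest fall of its class. Its median was 2.66 in control cells (0 to 4.61), 2.33 in Pac16h, 1.66 in Pac48h, 1.88 in Cele2h, 0 in cele16h (0 to 3.55) and 2.93 in PacCele16h. The difference in mean in cele16h was -1.55, and -0.96 at the same total, and the gene was detected there in 47.5% of cells (34.6 to 60.7%) against 76.1% of control cells (61.2 to 87.4%). Of 11 listed KRAB proteins with a described target, 1 was down in Pac16h and in cele16h, 0 passed in Pac48h and Cele2h, and 2 were up with both drugs, against the shares of all genes given above (37.3 and 43.9% down, 30.4% up with both). The list was lower in control cells than all genes, with a median mean E-value of 0.85 against 1.45. Of the other genes of like level, 2.40% were down in Pac16h and 2.96% in cele16h, and 18.4% were up with both drugs. ZNF195 was the gene down in Pac16h and in cele16h, at -0.94 and -0.80, and at the same total it was within the limit, at -0.52 and 0.06. ZNF33A, with 1.27 in PacCele16h and 0.66 at the same total, was up on both scales. ZNF91, which binds SVA and LINE-1 elements, differed by -0.15, 0.16, 0.28, 0.02 and 0.50, all within the limit. ZNF10, whose KRAB domain is the repressor used in many engineered fusions, was higher by 0.46 in cele16h, and by 0.79 at the same total, past the limit. It was detected in 47.5% of cele16h cells (34.6 to 60.7%), against 21.7% of control cells (10.9 to 36.4%) and 22.6 to 25.4% in the other treatments. ZNF10 is 1 of the 35 genes listed through 1 condition, here cele16h, so that a high share there is a condition of its being listed.

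The corepressor through which KRAB proteins act was lower in every treatment. TRIM28 (KAP1) was detected in all control cells at a mean E-value of 4.27, and differed by -1.20, -1.14, -0.98, -1.97 and -0.68, all past the limit. At the same total its differences were -0.49, -0.55, -0.45, -0.90 and -1.19, past the limit in cele16h and PacCele16h. Of 25 listed genes of the KRAB corepressor and heterochromatin list, 12 were down in Pac16h, 11 in Pac48h, 4 in Cele2h and 15 in cele16h, while with both drugs 7 were up and TRIM28 alone was down. These are shares of 48.0, 44.0, 16.0 and 60.0% down and 28.0% up, against 37.3, 26.6, 25.7 and 43.9% of all genes down and 30.4% up. The list was higher in control cells than all genes, with a median mean E-value of 2.22 against 1.45. Other genes above the upper quartile of the ZNF genes had a median of 2.49. Of those, 60.7, 43.9, 42.5 and 71.4% were down and 40.2% up, and against them the list had no clear excess of falls. Of the list 2, 1, 1, 5 and 2 were down at the same total, 3 were up in cele16h, and 0 were up in the other treatments. These are shares of 8.00, 4.00, 4.00, 20.0 and 8.00% down and 12.0% up. Of all genes 10.0, 5.77, 8.11, 7.95 and 5.79% were down and 7.38% up in cele16h. Of the other genes above the quartile 16.5, 9.63, 13.5, 13.2 and 9.61% were down and 9.72% up in cele16h. The list was thus above both in cele16h, and below the genes above the quartile in the other treatments for falls. SETDB1, the H3K9 methyltransferase recruited by TRIM28, stayed within the limit in all 5 comparisons on both scales, with spike-in differences from -0.23 to 0.30. DNMT1, the maintenance DNA methyltransferase, differed by -0.97, -0.98, -0.53, -1.83 and -0.53, past the limit in both paclitaxel groups and cele16h, and at the same total was past it in cele16h (-0.60) and with both drugs (-1.05). With both drugs the 135 genes with a KRAB motif and TRIM28 thus had opposite signs by spike-in, a median of 0.26 against -0.68. The positive sign was not particular to that class. The median was 0.21 for C2H2 genes without the motif, 0.26 for other genes of like level and 0.33 for all genes.

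**Figure D4:**
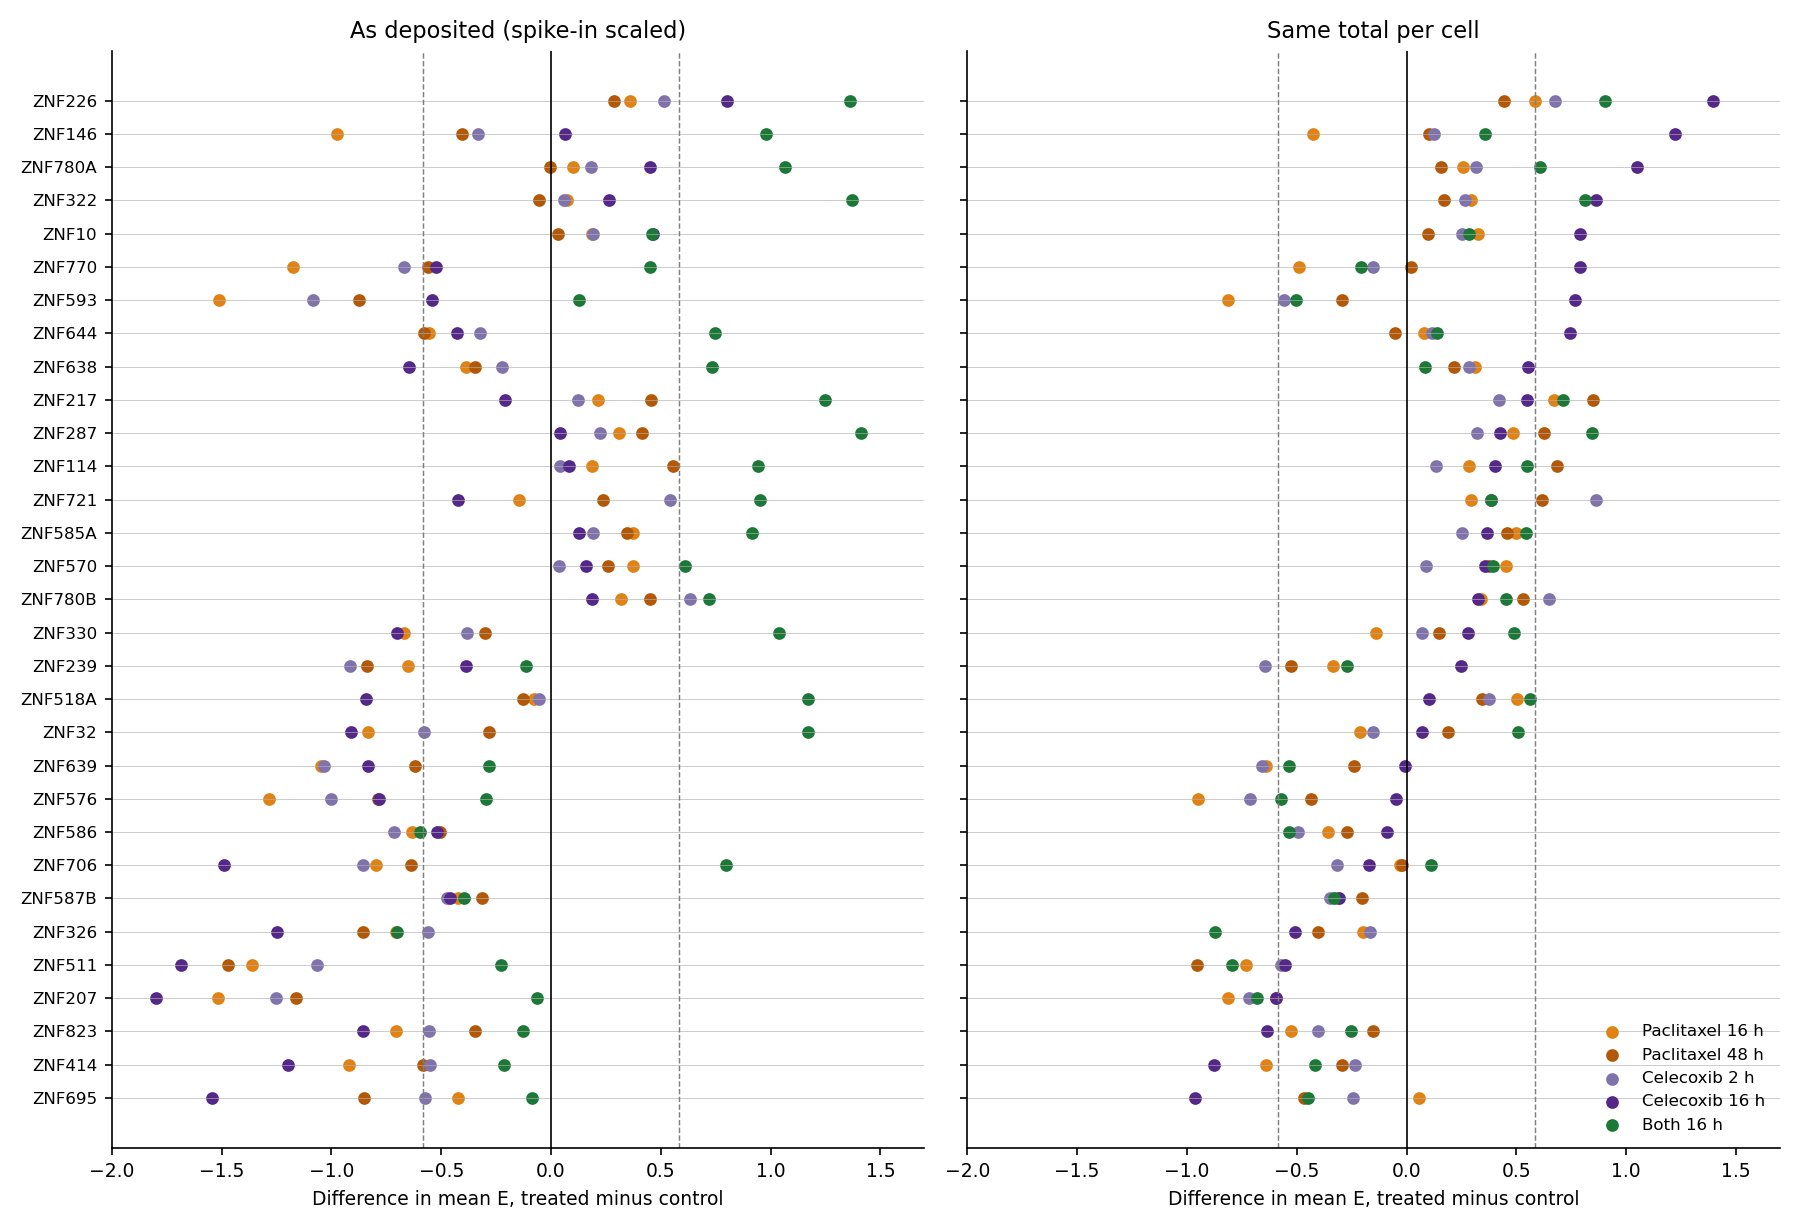
Difference in mean E-value from control cells for 31 named ZNF genes under the 5 treatments, as deposited (left) and at the same total per cell (right). Dashed lines mark 0.585 above and below 0. On the deposited scale the points of both drugs lie to the right of those of single drugs for most genes, and at the same total ZNF207 and ZNF326 lie left of 0 and ZNF226 right of 0 in all 5 treatments.

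Several ZNF genes differed in the share of detecting cells. ZNF414 had the largest fall, from 65.2% of control cells (49.8 to 78.6%) to 33.9% in Pac16h (21.8 to 47.8%) and 21.3% in cele16h (11.9 to 33.7%), and the difference in its mean in cele16h was -1.20, and -0.88 at the same total. ZNF410 went from 78.3% (63.6 to 89.1%) to 44.6% in Pac16h (31.3 to 58.5%). The largest gain was that of ZNF90, a KRAB protein detected in 28.3% of control cells (16.0 to 43.5%), 66.1% in Pac16h (52.2 to 78.2%) and 60.3% in Cele2h (47.2 to 72.4%), and in 41.0 to 49.1% in the other groups. Its mean E-value moved little, from 0.28 in control cells to 0.35 in Pac16h, so most of the added detections were low values. ZNF397 was detected in 37.0% of control cells (23.2 to 52.5%) and in 55.9 to 67.9% of the cells of every treatment. ZNF347 went from 34.8% (21.4 to 50.2%) to 69.8% in Cele2h (57.0 to 80.8%) and 62.3% in Pac48h (47.9 to 75.2%), and ZNF711, on chromosome X, from 15.2% (6.34 to 28.9%) to 45.9% in cele16h (33.1 to 59.1%). ZNF302 had the largest gain with both drugs, from 37.0 to 67.8% (54.4 to 79.4%), and ZNF174 followed, from 28.3 to 54.2% (40.8 to 67.3%). ZNF90, ZNF711 and ZNF174, with under 30% in control cells, were listed through treated cells and had to be higher in some treatment.

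ZNF586 and ZNF587B, neighbouring KRAB genes at the end of chromosome 19, were detected in fewer cells in all 5 treatments. ZNF586 was detected in 54.3% of control cells (39.0 to 69.1%) and in 33.9, 37.7, 22.2, 36.1 and 20.3% in the order of treatments. ZNF587B was detected in 39.1% (25.1 to 54.6%) and in 14.3, 22.6, 11.1, 9.84 and 10.2%. It was above 30% in control cells only and was listed through them, so that its lower shares elsewhere follow from how the list was made. The gene models of both lie on the plus strand and overlap, ZNF586 from 57769655 to 57819939 and ZNF587B from 57819721 to 57846238 in hg38, so that their reads are not fully separate. ZNF586 was past the limit downward with both drugs (-0.60) by spike-in and within it at the same total (-0.54), while ZNF587B was at -0.40 and -0.33. ZNF487 lost detections as well, with 37.0% of control cells (23.2 to 52.5%) and 7.94% of Cele2h cells (2.63 to 17.6%), and it too was listed through control cells alone. In Pac48h the largest falls in share were ZNF140, from 76.1 to 47.2%, and ZNF30, from 47.8 to 22.6%, and in cele16h ZNF623 went from 47.8 to 18.0%. The words of ZNF140 were 81.7% shared with other genes.

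ZNF genes of chromosome 19 had the same directions as those elsewhere by spike-in. On chromosome 19, 10, 3, 5 and 11 of 132 ZNF genes were down under single drugs and 23 up with both, and on the other chromosomes 25, 15, 15 and 27 of 143 were down and 29 up, against 37.3, 26.6, 25.7 and 43.9% down and 30.4% up of all genes. The median differences with both drugs were 0.22 and 0.26. With all cells at the same total, 5, 0, 1 and 2 on chromosome 19 were down under single drugs, 6 were up in cele16h and 3 with both, and elsewhere 9, 2, 3 and 2 were down, 13 up in cele16h and 5 with both. Of all genes 10.0, 5.77, 8.11 and 7.95% were down under single drugs at the same total, 7.38% up in cele16h and 5.95% with both. The medians in cele16h were then 0.07 and 0.08. The control level was lower on chromosome 19, with a median mean E-value of 0.45 against 0.72. Among the 15 runs of neighbours the median difference in PacCele16h went from 0.06 in a run of 5 on chromosome 16 (30407414 to 31074240) to 0.43 in a run of 5 on chromosome 19 (2819868 to 2944971), and by spike-in it was positive in all 15. In Pac16h it was negative in all 15, from -0.42 in the run of 5 on chromosome 1 that holds ZNF695 (246945547 to 247331867) to -0.01 in the run of 6 on chromosome 19 (21020634 to 21556270). Both counts hold for the spike-in scale, on which 82.5% of all genes were higher than in control cells in PacCele16h and 11.9% in Pac16h. The runs thus went with the shift of all genes. At the same total the median was positive in 3 of the 15 runs in Pac16h and negative in 3 in PacCele16h. These runs differ in the level of their genes as well, with a control median of 1.44 in the first and 0.18 in the second.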

How the data were processed

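Single A2780 cells of 6 conditions were measured by Smart-seq2. Adapters were removed by the authors with Trim Galore, and RSEM 1.3.0, run with Bowtie2, gave TPM values against the hg38 transcripts of GENCODE version 28 plus 3 spike-in sequences. TPM was divided by that of the highest spike-in in the cell, taken relative to its mean over cells. Cells with weak housekeeping genes were dropped, as were genes found in no more than 30% of cells in every condition. What the authors deposited is a log2 value, log2(N/10 + 1), for 9664 genes and 338 of the 372 cells. Reads per cell and doublets were not assessed, since neither can be had from these values.

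Groups were taken from the sample labels. The 275 rows with a symbol of ZNF and a number were the members, and the members and gene lists were chosen with earlier results of these data known. For each gene the mean E-value, the SD over cells, and the share of cells with an E-value above 0, with its exact 95% interval, were computed per condition. A difference from control past log2 of 1.5 was a call. Calls were repeated over all genes, over genes whose control mean lay between the quartiles of the members, and after N was recovered and scaled to 1 common total per cell. The genes named are the 10 of highest mean, the 3 largest rises and falls in mean E-value per treatment on either scale among genes detected in at least 30% of control or treated cells, the 2 largest rises and falls in the share of cells, and members of 5 lists by role. Genes given as the extreme of a class, a single gene behind a count, or markers were named after their values were seen.

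KRAB motifs and C2H2 fingers were matched in translated GENCODE version 44 coding sequences, and 31-base words were compared over all its transcripts. The steps were tested on simulated data. The alternatives were other scalings, linear means, a pseudocount of 1, a 50% detection limit, single index blocks, cells without wells noted as 0 or debris, an E-value limit of 1, sums over cells, and the members without the highest. All steps ran in Python 3.11.15 with pandas 2.3.3, numpy 2.4.6, matplotlib 3.10.9 and scipy 1.17.1.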

Additional observations from a re-analysis of the deposited data

How the results depend on the processing

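Of 126 recomputed values 56 stayed within 1.5 times the reported value, 63 moved further and 7 turned sign, and each condition being counted as 1 sample, none of them carries a test. Values are given in the order Pac16h, Pac48h, Cele2h, cele16h and PacCele16h. At the same total per cell, ZNF genes up numbered 2, 5, 3, 19 and 8 and those down 14, 2, 4 and 4 before PacCele16h, and the median differences were -0.022, 0.052, 0.0092, 0.076 and 0.045, of which those of Pac48h, Cele2h and cele16h turned sign. As a log2 ratio of linear means, 19, 37, 31, 16 and 218 were up and 143, 95, 91, 168 and 6 down, with medians of -0.62, -0.23, -0.33, -0.77 and 1.16. With a pseudocount of 1, 8, 17, 7, 12 and 96 were up and 94, 58, 71, 90 and 15 down, and the medians were -0.36, -0.11, -0.17 and -0.31 under single drugs. Linear means at the same total, an alternative chosen after seeing the data, gave 80, 115, 90, 138 and 98 up, 58 down in Pac16h, 36 in Cele2h and 31 in PacCele16h, and medians of 0.074, 0.30, 0.24, 0.60 and 0.38, of which the first 4 turned sign. Among ZNF genes detected in at least 50% of cells 0 were up in Cele2h, and the medians were -0.23, -0.19, -0.19, -0.32 and 0.39. Of the Pac48h cells, block 2 alone gave 1 ZNF gene up, and block 4 alone gave 3 up and a median of -0.016, and of the PacCele16h cells block 1 alone gave 1 down. With an E-value limit of 1 the median number of ZNF genes per cell was 58.5, 75, 68 and 65 under the single drugs. Leaving out wells noted as 0 or debris, summing over cells, and leaving out ZNF706 moved none of the values they were applied to by over 1.5 times. The causes of these shifts were not tested. No paired analysis was possible because the labels give no replicate shared between conditions. With about 50 cells a condition, the interval of a share near 50% spans over 20 percentage points, and the depth per cell is unknown, so scarce members can be described and not ranked.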
